A study of Mus musculus with 2 samples.

Results

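The 9 genes described here belong to insulin signalling, most of them to its route from the receptor to the glucose transporter GLUT4. They are Insr, Irs1, Irs2, Pik3r1, Akt2, Foxo1, Grb10, Tbc1d4 and Slc2a4. They were taken by symbol from the deposited list of 33943 genes, and all 9 were found there. Their unique molecular identifiers (UMIs, counts of single RNA molecules) were summed per animal and cell type in single nuclei of the mammary fat pad of lactating dams, taken on postnatal day 11 with the lymph nodes removed. The nuclei of 8 dams, marked with hashtags (DNA-barcoded tags), went into 1 pooled library. Of the 10 hashtags in it, 2 are named only as unknown samples and are tied to no dam. The hashtags name 4 animals Oxtr-KO, which the study's labels describe as lacking the oxytocin receptor gene Oxtr in adipocytes (Adipo-specific Oxtr KO), and 4 animals WT, taken here as the Oxtr flox group, the only other genotype in the labels. All dams ate standard chow, and breeding started with mice of 8 weeks. Litter size was 5 pups in 7 litters and 3 pups in 1 litter, and no litter is tied to a dam. The Cre or other driver behind the deletion is not stated in what was read here.

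Insulin binds the insulin receptor (Insr), whose kinase marks the adaptor proteins IRS1 and IRS2. These recruit PI3-kinase through its regulatory subunit p85-alpha (Pik3r1), and the lipid it makes brings the kinase AKT2 to the membrane. AKT2 then inactivates the RAB brake TBC1D4 (also called AS160), so that vesicles holding GLUT4 (Slc2a4) reach the cell surface, and it keeps the transcription factor FOXO1 out of the nucleus. GRB10 is an adaptor that binds the receptor and dampens the signal. In adipose tissue this route lets insulin drive glucose uptake and curb lipolysis. During lactation the milk-making (secretory luminal) cells take up glucose mainly through GLUT1.

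After filtering and removal of hashtag doublets, 18910 nuclei were clustered, and 12898 of them had both an animal and a named cell type. Each animal gave 1246 to 2013 nuclei with a median of 4297 to 5657 UMIs. The main contrast rests on 368 adipocyte nuclei, 33 to 70 per animal, and 9894 secretory luminal nuclei, 880 to 1654 per animal. Adipocyte nuclei held all 10 adipocyte markers, for example Plin1 (a coat protein of the lipid droplet) at 872 ± 129 CPM (UMIs scaled to a common total for each animal and cell type), against 0.794 ± 0.482 CPM in secretory luminal nuclei (SD, n = 8 animals each). RNA of secretory cells was found in every cell type. The 8 milk protein genes took 7.87 ± 0.568% of UMIs in adipocyte nuclei and 15.1 ± 1.75% in secretory luminal nuclei (SD, n = 8 each). The summed secretory markers outside milk protein reached in adipocyte nuclei 19.3% of their level in secretory luminal nuclei. Some samples' nuclei were washed against free RNA, and the labels do not say which. Oxtr went against the labels. It had 4, 5, 5 and 4 UMIs in adipocyte nuclei of the 4 animals labelled Oxtr-KO, against 1 UMI in each WT animal. The summed myoepithelial markers, which include Oxtr, were in adipocyte nuclei at 204 ± 125 CPM in animals labelled Oxtr-KO. In WT they were at 118 ± 46.1 CPM (SD, n = 4 each), and their part in the Oxtr counts was not tested. In myoepithelial nuclei, outside the labelled deletion, Oxtr averaged 180 ± 13.3 CPM in animals labelled Oxtr-KO and 226 ± 21.6 CPM in WT (SD, n = 4 each), without overlap. Were the labels exchanged, every genotype difference given here would turn its sign. Which part of the gene was deleted is not stated, so these counts need not come from it, and the genotype is written as labelled.

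The first comparison set adipocyte nuclei against secretory luminal nuclei within the 8 animals. The receptor, both adaptors, Akt2, Grb10 and Slc2a4 were higher in adipocytes, while Pik3r1 and Tbc1d4 were lower. With edgeR's quasi-likelihood test and Benjamini-Hochberg adjustment over 10919 genes, 8 of the 9 members passed an adjusted p of 0.05, where 54.1% of all genes passed. Of the members, 6 were called higher, against 24.3% of all genes, and 2 were called lower, against 29.7% of all genes. The median log2 difference was 1.66 over the members and -0.12 over all genes tested. That median over all genes was -0.16 with RLE scaling and 0.06 with no scaling factor, and the 8 called members stayed called in the same direction with RLE. The members and the other pathway genes had been left out of the genes used for clustering, so the clusters were not built on them.

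**Figure D1:**
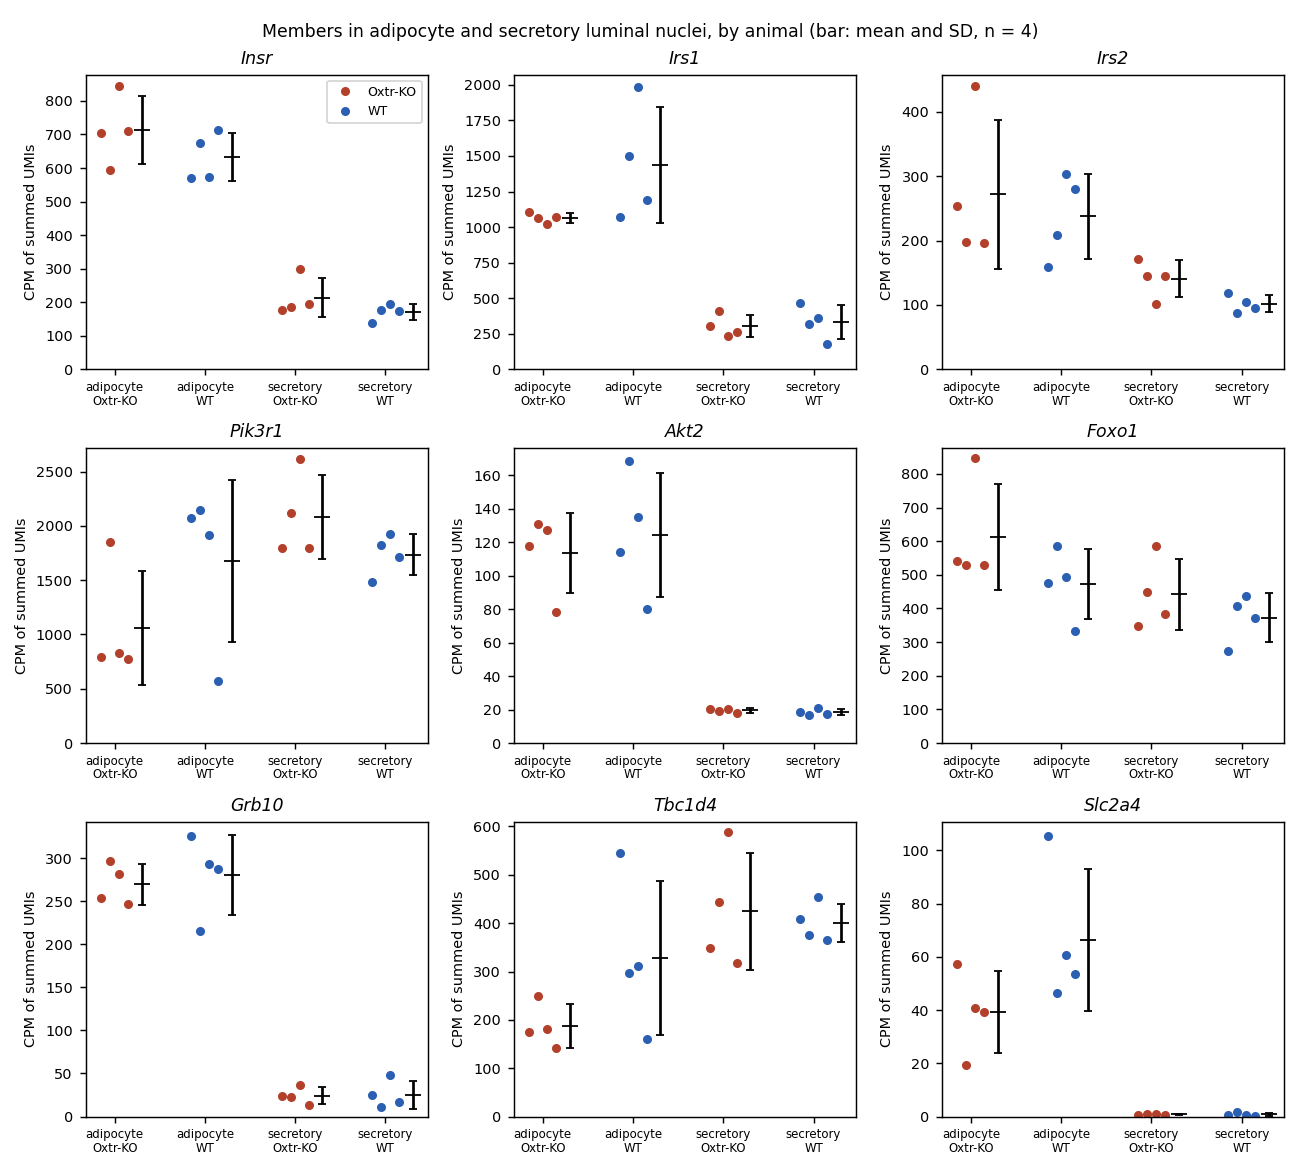
CPM of summed UMIs (linear axes from 0) of the 9 members in adipocyte and secretory luminal nuclei, 1 point per animal, with animals labelled Oxtr-KO left of WT and bars for the mean and SD of 4 animals. For Insr, Irs1, Akt2, Grb10 and Slc2a4 every adipocyte point lies above every secretory point, while Pik3r1 in adipocytes spreads from 567 to 2149 CPM. How many of all genes separate this way was not counted, and 54.1% of them passed in this contrast.

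Insr, the receptor, ranged from 572 to 843 CPM in adipocyte nuclei with a median of 689 CPM, and from 139 to 300.5 CPM in secretory luminal nuclei with a median of 181 CPM. The 8 adipocyte values lay above the 8 secretory values without overlap. Here and for the members below, the share of all genes without overlap was not counted. The log2 difference was 1.66 ± 0.107 (SE, adjusted p = 4.96e-14, edgeR, higher in adipocytes of 8 of 8 animals). Grb10, the receptor's inhibitor, ranged from 215 to 325 CPM in adipocyte nuclei with a median of 284 CPM, and from 11.2 to 47.8 CPM in secretory luminal nuclei with a median of 23.5 CPM. These groups did not overlap either. The log2 difference was 3.40 ± 0.152 (SE, adjusted p = 7.32e-18, edgeR). A Grb10 UMI was found in 53.8% of 463 adipocyte nuclei (exact 95% interval 49.1 to 58.4%) and in 10.6% of 11270 secretory luminal nuclei (9.99 to 11.1%). The secretory nuclei were the deeper ones, with a median of 4085 UMIs in adipocyte nuclei and 5018 UMIs in secretory luminal nuclei.

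The receptor substrates Irs1 and Irs2 were both higher in adipocytes. Irs1 ranged from 1020 to 1982 CPM in adipocyte nuclei with a median of 1089 CPM, and from 178 to 466 CPM in secretory luminal nuclei with a median of 312 CPM. Its groups did not overlap, and the log2 difference was 1.83 ± 0.144 (SE, adjusted p = 4.68e-12, edgeR). Irs2 ranged from 158 to 440 CPM in adipocyte nuclei with a median of 231 CPM, and from 87.8 to 172 CPM in secretory luminal nuclei with a median of 112 CPM. Its lowest adipocyte value, in WT animal 1, was under its highest secretory value, in animal 1 labelled Oxtr-KO, but each of the 8 animals had more Irs2 in its adipocytes than in its own secretory nuclei. The log2 difference of Irs2 was 0.87 ± 0.17 (SE, adjusted p = 6.69e-05, edgeR). Under the stricter hashtag ratio rule (at least 10 hashtag UMIs, and 3 times the next hashtag) it was 0.40 (adjusted p = 0.147, edgeR). That fit rested on animals 1, 2 and 4 labelled Oxtr-KO alone, with 43, 40 and 12 adipocyte nuclei. No WT animal kept the 10 nuclei needed.

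The promoters of Irs1 and Irs2 are shown because the pair moved the same way, with that of Tbc1d4, which moved the other way, beside them. The 250 bases before the transcript start come from the RefSeq table of build GRCm38.p6, which is not the build of the deposited counts. They are written 5′ to 3′ on the strand of the gene, with the E-box CACGTG in capitals. The table held a promoter for 7 of the 9 members, and Insr and Slc2a4 had no entry.
Irs1 (chr1:82291440-82291689, minus strand): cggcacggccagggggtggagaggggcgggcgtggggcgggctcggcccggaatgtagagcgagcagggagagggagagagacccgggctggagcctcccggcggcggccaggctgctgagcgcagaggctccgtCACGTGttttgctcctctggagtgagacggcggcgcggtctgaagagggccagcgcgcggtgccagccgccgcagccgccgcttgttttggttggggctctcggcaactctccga
Irs2 (chr8:11008930-11009179, minus strand): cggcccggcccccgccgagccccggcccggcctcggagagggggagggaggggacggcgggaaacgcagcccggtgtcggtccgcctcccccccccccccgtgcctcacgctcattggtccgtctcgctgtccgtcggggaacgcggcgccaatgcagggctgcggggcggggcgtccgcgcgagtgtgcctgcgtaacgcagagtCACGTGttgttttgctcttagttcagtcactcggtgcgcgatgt
Tbc1d4 (chr14:101609192-101609441, minus strand): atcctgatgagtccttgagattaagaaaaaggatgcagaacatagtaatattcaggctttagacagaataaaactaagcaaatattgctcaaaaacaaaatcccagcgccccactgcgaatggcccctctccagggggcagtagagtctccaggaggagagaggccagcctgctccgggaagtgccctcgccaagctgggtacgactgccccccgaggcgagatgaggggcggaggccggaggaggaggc
A set of 4 motifs was searched on both strands of all 32851 promoters of this length. The E-box CACGTG was in 6.02% of them and, among the 7 members with an entry, in those of Irs1 and Irs2 alone. The FOXO core GTAAACA was in 3.17% and in no window of those 7. The GC box GGGCGG was in 32.7% and in all 3 windows printed, and CCAAT was in 33.9% and, of the 3, in that of Irs2. A match says only that these letters stand in this window.

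Pik3r1 and Akt2, the next steps of the relay, went opposite ways. Pik3r1, the regulatory subunit of PI3-kinase, ranged from 567 to 2149 CPM in adipocyte nuclei with a median of 1338 CPM, and from 1485 to 2612 CPM in secretory luminal nuclei with a median of 1809 CPM. Its groups overlapped, because 4 adipocyte values lay between 1847 and 2149 CPM and the other 4 lay between 567 and 830 CPM. The log2 difference was -0.78 ± 0.182 (SE, adjusted p = 0.000528, edgeR). Akt2, the AKT kinase tied to glucose uptake, ranged from 78.4 to 168 CPM in adipocyte nuclei with a median of 122 CPM, and from 16.6 to 20.6 CPM in secretory luminal nuclei with a median of 18.8 CPM. The groups lay far apart, with a log2 difference of 2.48 ± 0.155 (SE, adjusted p = 2.5e-14, edgeR). Foxo1, the transcription factor that AKT holds back, ranged from 334 to 848 CPM in adipocyte nuclei and from 273 to 587 CPM in secretory luminal nuclei, and its groups overlapped. Its log2 difference of 0.25 ± 0.116 did not pass (SE, adjusted p = 0.0758, edgeR). Without WT animal 4 it was 0.32 and passed (adjusted p = 0.0242, edgeR), and with no filter on low counts it was -0.02 (adjusted p = 0.898, edgeR).

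The end of the route separated Slc2a4 from its gatekeeper Tbc1d4. Slc2a4, the insulin-responsive transporter GLUT4, ranged from 19.4 to 105.5 CPM in adipocyte nuclei with a median of 49.9 CPM, on 95 UMIs in all. It ranged from 0.366 to 1.57 CPM in secretory luminal nuclei with a median of 0.701 CPM, on 46 UMIs in all. The lowest adipocyte value was above the highest secretory value, and the log2 difference was 5.78 ± 0.338 (SE, adjusted p = 5.21e-15, edgeR). Tbc1d4, the RAB brake on GLUT4 vesicles, was lower in adipocytes. It ranged from 141 to 545 CPM in adipocyte nuclei with a median of 216 CPM, and from 318 to 588 CPM in secretory luminal nuclei with a median of 392 CPM. Only WT animal 1 had an adipocyte value above the lowest secretory value, and the log2 difference was -0.92 ± 0.151 (SE, adjusted p = 6e-06, edgeR).

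Across the 7 cell types with enough nuclei, 5 of the members with a higher adipocyte level had their highest mean there, as did Foxo1. Insr was at 673 ± 92.3 CPM in adipocytes, then at 309.6 ± 118.5 CPM in vascular endothelial nuclei, and between 192 and 238 CPM in the other 5 types (means ± SD, n = 8 animals). Akt2 was at 119 ± 29.5 CPM in adipocytes, followed by fibroblasts at 31.2 ± 13.7 CPM, and the lowest mean was 17.2 ± 18.5 CPM in luminal progenitors. Irs1 and Irs2 both had secretory luminal nuclei second, at 318 ± 93.9 CPM and 121 ± 29.5 CPM. Irs1 was lowest in macrophages at 185 ± 104 CPM, and Irs2 was lowest in myoepithelial nuclei at 68.6 ± 27 CPM. Foxo1 was at 542 ± 145 CPM in adipocytes, 407 ± 91.4 CPM in secretory luminal nuclei and 285 ± 63.6 CPM in fibroblasts, the lowest.

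The other members had their own order. Grb10 was highest in fibroblasts at 375 ± 75.9 CPM, then in adipocytes at 275 ± 34.6 CPM and vascular endothelial nuclei at 112 ± 33.1 CPM, and the other types lay between 15.8 and 35.1 CPM (means ± SD, n = 8). Pik3r1 was highest in secretory luminal nuclei at 1908 ± 336 CPM and lowest in fibroblasts at 1016 ± 207 CPM. Tbc1d4 was highest in luminal progenitors at 416 ± 63.1 CPM and secretory luminal nuclei at 413 ± 84.5 CPM, and lowest in fibroblasts at 181 ± 64.9 CPM. Slc2a4 had a second site besides adipocytes (52.8 ± 24.9 CPM). Myoepithelial cells, the contractile cells that eject milk under oxytocin, had 27.8 ± 8.02 CPM, while the other 5 types had 2.14 CPM or less. A Slc2a4 UMI was found in 8.25% of 1890 myoepithelial nuclei (exact 95% interval 7.05 to 9.59%) at a median of 2526.5 UMIs, against 18.1% of adipocyte nuclei (14.7 to 22%) and 0.453% of secretory luminal nuclei (0.337 to 0.595%). The summed adipocyte markers in myoepithelial nuclei were at 1.37% of their level in adipocyte nuclei. Vascular endothelial nuclei of the 8 animals had 0 Slc2a4 UMIs.

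**Figure D2:**
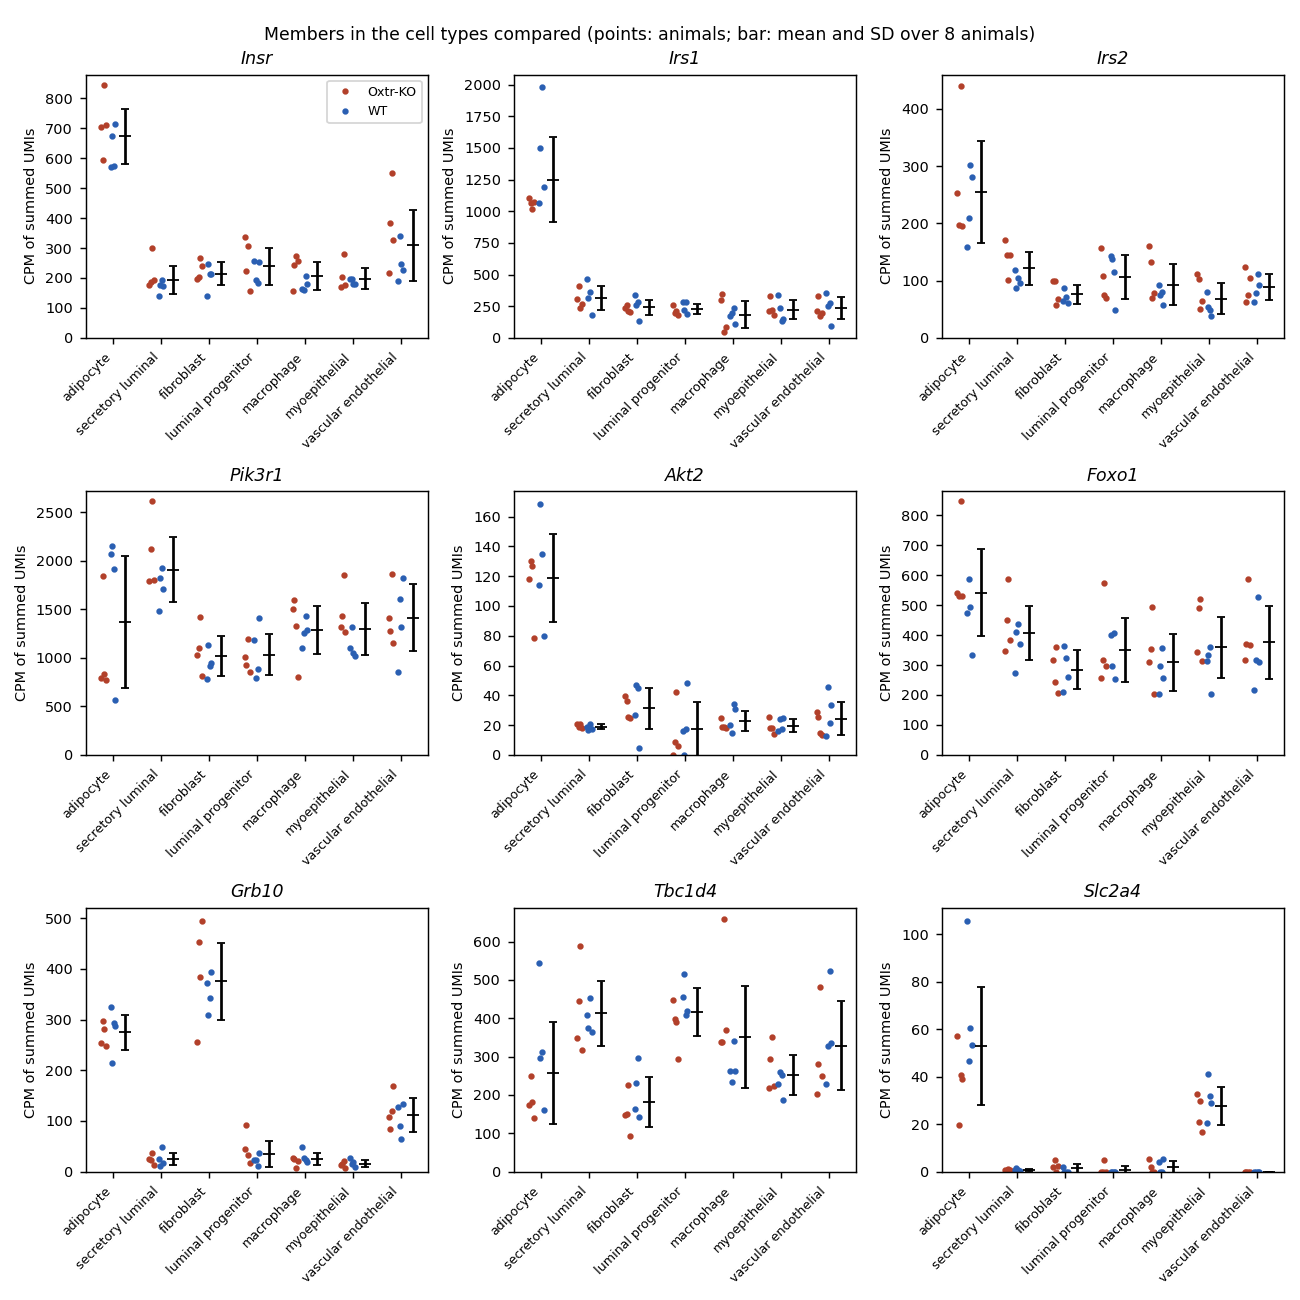
CPM of the 9 members (linear axes from 0) in the 7 cell types compared, 1 point per animal, red for animals labelled Oxtr-KO and blue for WT, with bars for the mean and SD over 8 animals. Adipocytes stand highest for Insr, Irs1, Irs2, Akt2, Foxo1 and Slc2a4, fibroblasts for Grb10 (375 CPM), and myoepithelial nuclei hold the second level of Slc2a4 (27.8 CPM).

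Neighbouring cell types in these orders were compared within animals with an exact two-sided sign-flip permutation test. Of 54 pairs, 0 passed after Benjamini-Hochberg adjustment and 13 had an unadjusted p under 0.05. In 8 pairs every animal went the same way, at the smallest p that 8 animals allow (0.00781), which adjusted to 0.0527 in this exact permutation test, so that with 8 pairs at that p none could pass. The number that passed was 9 with Leiden resolution 1.0, 9 without milk protein genes and 18 of 36 with cell types called nucleus by nucleus. The 8 pairs at the smallest p in the main setting, none of which passed there, included adipocyte above vascular endothelial for Insr. They also included adipocyte above secretory luminal for Irs1 and Irs2, secretory luminal above fibroblast for Irs1, and adipocyte above fibroblast for Akt2. The rest were fibroblast above adipocyte and adipocyte above vascular endothelial for Grb10, and myoepithelial above macrophage for Slc2a4. For Slc2a4, adipocyte stood above myoepithelial in 7 of 8 animals (adjusted p = 0.0703, exact permutation test). Among the lower ranks of Insr, Irs2, Akt2 and Foxo1, from the second type down, no pair of neighbours had an unadjusted p under 0.05.

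RNA of secretory cells differed in amount between the types. The summed secretory markers outside milk protein were at 45.2% of their secretory luminal level in fibroblasts, 46.2% in myoepithelial nuclei, 56.1% in macrophages, 62.4% in luminal progenitors and 68.3% in vascular endothelial nuclei, and at 19.3% in adipocytes. Nuclei of the same clusters with no animal, which the sums leave out, gave a second reading. They take in nuclei with no called hashtag and any nuclei called to an unknown hashtag. In fibroblasts, 1069 such nuclei had Pik3r1 at 499 CPM, against 1010 CPM over 673 nuclei with an animal, with secretory markers at 1193 CPM and 3464 CPM. Tbc1d4 in those fibroblasts was at 73.9 CPM without an animal and 174 CPM with one, while Grb10 was at 625 CPM and 374 CPM. In vascular endothelial nuclei Pik3r1 was at 402 CPM without an animal and 1423 CPM with one, and Insr was at 408 CPM and 309 CPM. Tbc1d4 in luminal progenitors was at 267.5 CPM without an animal and 403.5 CPM with one. In secretory luminal nuclei Tbc1d4 was at 449 CPM without an animal and 407 CPM with one, and in macrophages without an animal at 351 CPM. Pooled this way, luminal progenitors were not the highest for Tbc1d4. Foxo1 was at 151 CPM in macrophages without an animal and 303 CPM with one, against 472 CPM and 547 CPM in adipocytes. Irs1 in vascular endothelial nuclei was at 72.9 CPM without an animal and 241.5 CPM with one. Among nuclei with no animal, macrophages were the lowest for Foxo1, and vascular endothelial nuclei for Irs1, Irs2 and Pik3r1. In adipocytes the 95 nuclei with no animal had Insr at 625 CPM, Irs1 at 1224 CPM, Akt2 at 87.4 CPM and Grb10 at 210 CPM (exact Poisson 95% interval of Grb10 155 to 278 CPM, counting error only). Slc2a4 there was at 26.2 CPM (9.62 to 57.1 CPM) on 6 UMIs, against 50.5 CPM in adipocytes with an animal, while in myoepithelial nuclei it was at 27.7 CPM without an animal and 26.9 CPM with one. The part of secretory RNA in the members' levels was not tested.

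The 4 small cell types were pooled over animals, with exact Poisson 95% intervals that cover counting error only. Hormone-sensing luminal nuclei (35 nuclei) had Irs2 at 364 CPM (276 to 472 CPM) on 57 UMIs, and Foxo1 at 141 CPM (88.2 to 213 CPM). Pericytes (39 nuclei) had Irs1 at 378 CPM (310.1 to 456 CPM) and Grb10 at 73.5 CPM (45.5 to 112 CPM). Plasma cells (79 nuclei) had Pik3r1 at 1613 CPM (1503 to 1728 CPM) and Insr at 188 CPM (152 to 230 CPM). T and NK nuclei (79 nuclei) had 0 Slc2a4 UMIs, which allows up to 9.61 CPM as 3 counts of the total, or 11.8 CPM as the exact Poisson upper bound, and 2 Slc2a4 UMIs were found in pericytes.

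Within the secretory luminal nuclei the members are described in the 3 clusters without a test. Pik3r1 was at 1861 ± 372 CPM in the cluster led by Gldc and Plpp4, 1959 ± 325 CPM in that led by Plpp4 and Elovl5, and 1750 ± 273 CPM in that led by the cell-division genes Top2a and Kif11 (SD, n = 8 animals each). Tbc1d4 was at 398 ± 92.2 CPM, 423 ± 80.4 CPM and 417 ± 72.7 CPM in the same order. Irs1 was at 287 ± 88.4 CPM, 333 ± 93.9 CPM and 334 ± 85.7 CPM. The differences between cluster means were smaller than the SD between animals. Within animals, Irs1 was higher in the cluster led by Plpp4 and Elovl5 than in that led by Gldc and Plpp4 in 8 of 8. Irs2, Pik3r1, Foxo1 and Tbc1d4 were each so in 7 of 8. The median depth of these clusters was 5787 and 4070 UMIs in the same order. The share of all genes that go this way was not counted.

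The other genes of the pathway were described from a list of 73, of which 66 were tested between adipocyte and secretory luminal nuclei. Of these, 18 were called higher and 21 lower in adipocytes, with a median log2 difference of -0.01. These shares lie near those of all genes tested, of which 24.3% were called higher and 29.7% lower. Those with large log2 differences included Trarg1, Pde3b, Slc2a3, Ralgapa2, Igf1r, Hk1 and Trib3. Trarg1, which encodes a regulator of GLUT4 vesicle traffic, was at 67.1 ± 20.5 CPM in adipocyte nuclei and 0.0521 ± 0.0746 CPM in secretory luminal nuclei (SD, n = 8 each). Only 3 Trarg1 UMIs were found in all secretory nuclei, which gives a pooled ratio of 1278 with an interval of 428 to 6280 from counting error. Pde3b, the phosphodiesterase through which insulin curbs lipolysis, was at 2729 ± 700.5 CPM in adipocyte nuclei and 3.66 ± 1.36 CPM in secretory luminal nuclei. Its log2 difference was 9.36 ± 0.183 (SE, adjusted p = 1.29e-26, edgeR).

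The lists follow by role, with Ptprf, Pik3cb, Akt1, Snap23, Slc2a1 and Hk2 named after their values were seen. The receptor, adaptor and inhibitor list had 5 genes called higher and 5 lower of 11 tested, with Igf1r, the receptor of insulin-like growth factor 1, higher by 4.34 on the log2 scale. Ptprf, a receptor phosphatase, was at -2.32. The list of PI3K and lipid phosphatases had 3 higher and 2 lower of 8, with Pik3cb, a catalytic subunit, at 1.64. The AKT list had 2 higher and 3 lower of 11. Its Akt1, the sister kinase of Akt2, had a log2 difference of -1.83 ± 0.189 (SE, adjusted p = 1.37e-09, edgeR), with 40.2 ± 19.5 CPM in adipocyte nuclei and 128 ± 22 CPM in secretory luminal nuclei (SD, n = 8 each). Trib3, a pseudokinase that binds AKT, was at -2.52. The list of AKT targets outside glucose uptake had 1 higher, Pde3b, and 2 lower of 10. Among GLUT4 vesicle genes 5 were higher and 7 lower of 20, with Ralgapa2, a subunit of the RAL GTPase-activating complex, at 4.73 and Snap23, a vesicle fusion protein, at -1.48. Among the other transporters and hexokinases 2 were higher and 2 lower of 6. Slc2a3 (GLUT3) was at 5.30 and Hk2 at 0.82, while Slc2a1 (GLUT1) was at -1.79 ± 0.189 and Hk1 at -2.55 ± 0.31 (SE, adjusted p = 2.26e-09 and 3.63e-08, edgeR). Slc2a1 was at 38.9 ± 18 CPM in adipocyte nuclei and 123 ± 9.88 CPM in secretory luminal nuclei.

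**Figure D3:**
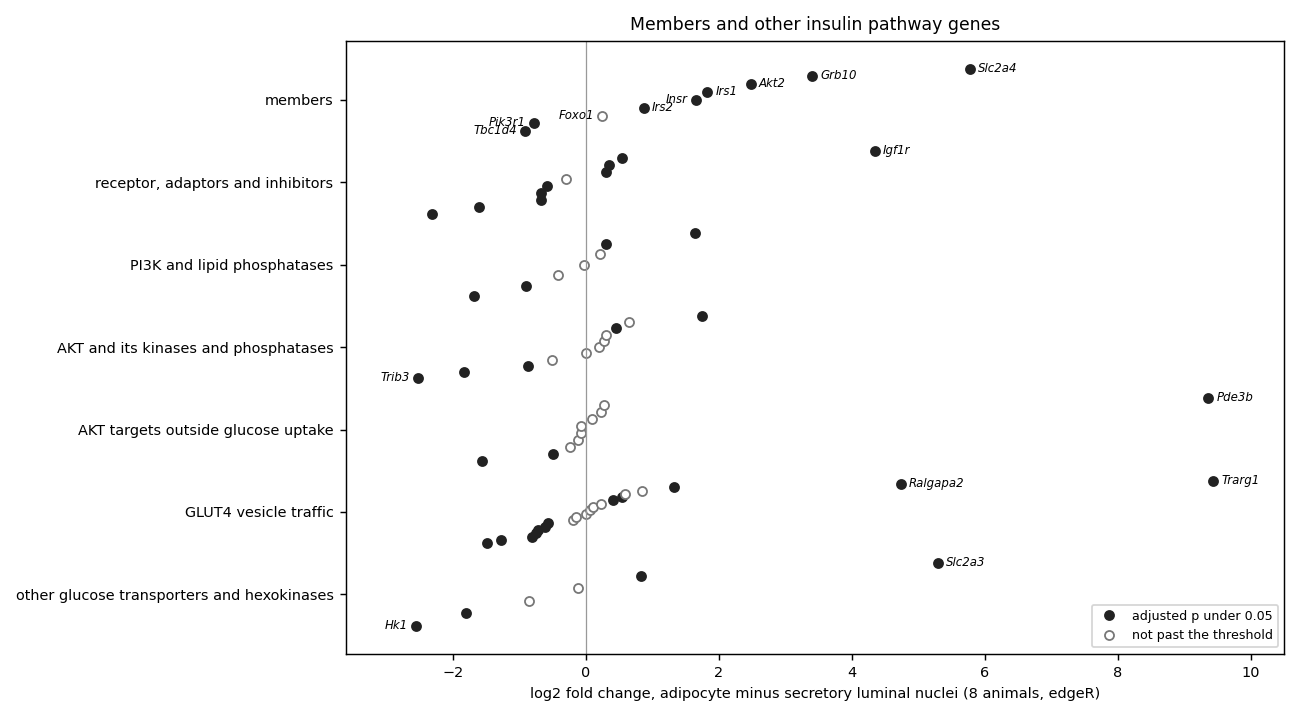
Log2 differences, adipocyte minus secretory luminal nuclei, of the 9 members and of the other pathway genes shown, grouped by list, with filled points past an adjusted p of 0.05. The members lie between -0.92 (Tbc1d4) and 5.78 (Slc2a4), and Trarg1 and Pde3b lie farthest to the right.

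The shape of each member's level over the 7 cell types was set beside that of every gene with at least 500 UMIs, as Pearson's r of mean log2(CPM + 10), and the 2 nearest genes are named. These r describe 7 points that share 1 library and its free RNA. Nearest to Insr were Ralgapa2 and Sox6 (r = 0.985 each), and to Akt2 Alas1 (0.989) and Ppa1 (0.988). Nearest to Irs1 were Mmut and Sntg2 (0.989 each), and to Irs2 Cpeb3 (0.993) and Ap3s1 (0.986). Nearest to Pik3r1 were Slc25a1 (0.977) and Aste1 (0.976), and to Foxo1 Mpp7 (0.989) and Akap1 (0.987). Nearest to Grb10 were Rnf144a (0.969) and Nmt2 (0.949), to Tbc1d4 Rhbdf2 (0.981) and Kdm1b (0.97), and to Slc2a4 9630028H03Rik (0.981) and Ackr4 (0.977). Among the members themselves r was 0.92 between Irs1 and Irs2, 0.91 between Insr and Akt2, and -0.71 between Grb10 and Tbc1d4.

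The second comparison asked whether the members differ by genotype in adipocytes. No member passed. Of 9 members tested, 0 were called by edgeR's quasi-likelihood test and 0 by DESeq2, where 0.0259% of 3858 genes were called by edgeR. The test could not be repeated under the hashtag ratio rule. That rule left 8, 2, 5 and 7 adipocyte nuclei in WT animals 1 to 4, fewer than the 10 needed. Whether weak hashtag calls mix animals was not tested. An unadjusted p under 0.05 was found for 320 of the 3858 genes and for 3 members (edgeR). Slc2a4 had 57.2, 19.4, 40.8 and 39.2 CPM in the 4 animals labelled Oxtr-KO, against 105.5, 46.5, 60.5 and 53.4 CPM in the WT animals, on 42 and 53 UMIs. The groups overlapped through animal 1 labelled Oxtr-KO, and the log2 difference was -0.85 ± 0.372 (SE, adjusted p = 0.542, edgeR). It was -0.50 without WT animal 1. Tbc1d4 had 175, 250, 181 and 141 CPM in animals labelled Oxtr-KO, against 545, 296, 312 and 160 CPM in WT. WT animal 4 lay among the animals labelled Oxtr-KO, and the log2 difference was -0.84 ± 0.293 (SE, adjusted p = 0.395, edgeR). It was -0.47 without WT animal 1.

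Pik3r1 in adipocytes had 790 CPM, 1847 CPM, 830 CPM and 772 CPM in animals labelled Oxtr-KO, against 2071, 2149, 1917 and 567 CPM in WT. An animal of each genotype stood with the other group: animal 2 labelled Oxtr-KO and WT animal 4. The log2 difference was -0.68 ± 0.343 (SE, adjusted p = 0.64, edgeR), and it was -0.96 without WT animal 4 (adjusted p = 0.0766, edgeR) and -1.08 without animal 2 labelled Oxtr-KO (adjusted p = 0.155, edgeR). Irs1 had 1108, 1064, 1020 and 1070 CPM in animals labelled Oxtr-KO, against 1068, 1499, 1982 and 1188 CPM in WT, a log2 difference of -0.44 ± 0.191 (SE, adjusted p = 0.539, edgeR) that was -0.24 without WT animal 3. The animals labelled Oxtr-KO lay close together and WT animals 2 and 3 stood above them. Foxo1 had 540, 530, 848 and 529 CPM in animals labelled Oxtr-KO, against 475, 587, 493 and 334 CPM in WT, and a log2 difference of 0.35 ± 0.219 (SE, adjusted p = 0.703, edgeR). The groups overlapped, and the difference was 0.16 without animal 3 labelled Oxtr-KO.

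The 4 other members lay nearer to 0 in adipocytes. Insr averaged 713 ± 102 CPM in animals labelled Oxtr-KO and 633 ± 72.3 CPM in WT, and Irs2 averaged 272 ± 115 CPM and 238 ± 66.2 CPM in the same groups (SD, n = 4 each). Akt2 averaged 113 ± 24 CPM in animals labelled Oxtr-KO and 124 ± 37.1 CPM in WT, and Grb10 averaged 270 ± 23.5 CPM in animals labelled Oxtr-KO and 280 ± 46.6 CPM in WT (SD, n = 4 each). Their log2 differences lay between -0.15 and 0.18. The 10 adipocyte markers moved beside these values: summed, they ranged from 7849 to 9924 CPM in animals labelled Oxtr-KO and from 10400 to 11760 CPM in WT, and the part of this in the members' differences was not tested. Secretory markers outside milk protein ranged from 1247 to 2120 CPM in adipocytes of animals labelled Oxtr-KO and from 1134 to 1484 CPM in those of WT.

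In secretory luminal nuclei, 0 of 8 members tested were called by edgeR and 0 by DESeq2, where edgeR called 0% of 12895 genes. An unadjusted p under 0.05 was found for 1104 of the 12895 genes and for 1 member (edgeR). That member was Irs2, with 172, 145, 102 and 145 CPM in animals labelled Oxtr-KO, against 119, 87.8, 105 and 96 CPM in WT. Animal 3 labelled Oxtr-KO lay among the WT animals, and the log2 difference was 0.44 ± 0.184 (SE, adjusted p = 0.575, edgeR). Insr had 176, 186, 300.5 and 195 CPM in animals labelled Oxtr-KO, against 139, 176, 194 and 173 CPM in WT, and a log2 difference of 0.27 ± 0.154 (SE, adjusted p = 0.652, edgeR). It was 0.12 without animal 3 labelled Oxtr-KO, whose secretory luminal nuclei also had the lowest share of milk protein UMIs (11.4%) and the lowest secretory markers outside milk protein (5137 CPM) of the 8 animals, and their part in the result was not tested. Pik3r1, Foxo1, Akt2, Tbc1d4, Irs1 and Grb10 lay between -0.17 and 0.21 on the log2 scale. Slc2a4 was under the filter on low counts, with 20 UMIs in animals labelled Oxtr-KO and 26 UMIs in WT.

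In the other 5 cell types, 0 of 34 tests of members passed with edgeR and 0 with DESeq2, and 5 had an unadjusted p under 0.05. Over all genes, 364 of 6339 had such a p in fibroblasts, 306 of 5295 in macrophages and 116 of 2311 in luminal progenitors (edgeR). In myoepithelial nuclei 500 of 6565 genes had it, and in vascular endothelial nuclei 95 of 2322. The share of all genes called by edgeR was 0.0152% in myoepithelial nuclei, 0.0431% in vascular endothelial nuclei and 0% in fibroblasts, macrophages and luminal progenitors. Irs2 in macrophages had 160, 133, 69.7 and 78.9 CPM in animals labelled Oxtr-KO, against 91.9, 74.4, 79.4 and 58.2 CPM in WT (log2 difference 0.63, adjusted p = 0.85, edgeR). In myoepithelial nuclei Irs2 had 112, 103, 50.3 and 63.9 CPM in animals labelled Oxtr-KO, against 79.4, 53.2, 49.1 and 37.7 CPM in WT (log2 difference 0.58, adjusted p = 0.612, edgeR). In both types animals 1 and 2 labelled Oxtr-KO were the highest of the 8, and the groups overlapped. Secretory markers outside milk protein in those macrophages were at 5733, 5411, 2628 and 2786 CPM in animals 1 to 4 labelled Oxtr-KO. In macrophages of WT animals 1 to 4 these markers were at 4078, 5015, 5043 and 3989 CPM. In the myoepithelial nuclei they were at 4017, 4226, 2567 and 3427 CPM in animals labelled Oxtr-KO, and at 4230, 4553, 3337 and 2225 CPM in WT. Their part in the Irs2 values was not tested. Tbc1d4 in macrophages was at 0.60 (adjusted p = 0.85, edgeR), opposite in sign to its difference in adipocytes. The log2 differences of Insr lay between 0.10 and 0.49 in the 7 cell types, which share the same animals and library. Animal 3 labelled Oxtr-KO had the highest Insr level of all animals in every type but luminal progenitors. Slc2a4 in myoepithelial nuclei was at -0.27 ± 0.307 (SE, adjusted p = 0.892, edgeR).

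**Figure D4:**
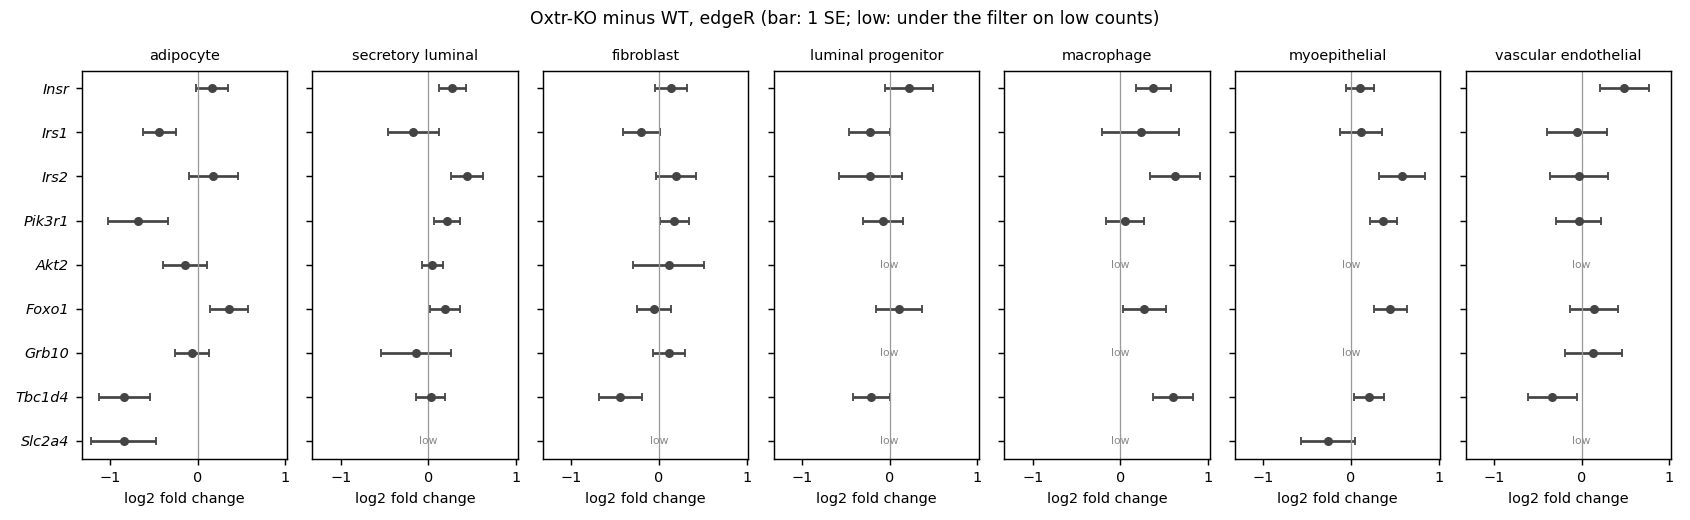
Log2 differences of the members, animals labelled Oxtr-KO minus WT, in each of the 7 cell types (edgeR, bars of 1 SE; "low" marks members under the filter on low counts). Tbc1d4 (-0.84), Slc2a4 (-0.85) and Pik3r1 (-0.68) lie lowest in adipocytes, and no point passed an adjusted p of 0.05.

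The last comparison tested whether the genotype difference in adipocytes was another than in secretory luminal nuclei of the same animals. Of 9 members, 0 were called by edgeR and 0 by DESeq2, where 0.0557% of 12562 genes were called by edgeR. An unadjusted p under 0.05 was found for 860 of the 12562 genes and for 2 members (edgeR). These were Pik3r1 at -0.76 ± 0.28 (SE, adjusted p = 0.401, edgeR) and Tbc1d4 at -0.69 ± 0.256 (SE, adjusted p = 0.424, edgeR), beside a median of 0.11 over all genes. In 13 of 17 alternatives no member was called, among them RLE (Pik3r1 adjusted p = 0.35, edgeR) and DESeq2 (Pik3r1 adjusted p = 0.999). Both passed, or Pik3r1 alone, in the others. Without WT animal 4, Pik3r1 was at -1.24 (adjusted p = 0.000953, edgeR) and Tbc1d4 at -0.97 (adjusted p = 0.0391, edgeR). Without animal 2 labelled Oxtr-KO, Pik3r1 was at -1.15 (adjusted p = 0.0124, edgeR). In these 2 animals Pik3r1 in adipocytes stood with the other genotype, so leaving either out was bound to widen its difference. Pik3r1 also passed with no filter on low counts, at -0.79 (adjusted p = 0.0389, edgeR), and with cell types called nucleus by nucleus, at -1.48 (adjusted p = 0.0446, edgeR).

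The genotype comparison gave its members' levels with less precision in adipocytes than in secretory luminal nuclei. An animal's adipocytes held 149884 to 360073 UMIs, so that 1 UMI stood for several CPM, while its secretory luminal nuclei held 4322893 to 9159336 UMIs.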

How the data were processed

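The authors deposited raw UMI counts of 1 pooled single-nucleus library (21805 barcodes, 33943 genes) and hashtag UMIs with their read counts. Per the submitters' processing notes, Cell Ranger 7.2.0, fastp and GRCm39 were used, with no role stated. The hashtag table and feature list gave animals and groups, and 61.4% of hashtag UMIs had 1 read.

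Of the barcodes, 20854 passed minimums of 500 UMIs and 300 genes and a mitochondrial share below 5%. Animals were called with HTODemux (Seurat 5.3.0, quantile 0.99) on 9 of 10 hashtags, leaving out 1 of the 2 unknown ones. The 1944 hashtag doublets were removed, and 5647 clustered nuclei had no called hashtag. Scrublet's automatic threshold called 1 nucleus and was not used as a filter. Nuclei were clustered with scanpy 1.11.5 (Python 3.11.15; 2000 variable genes, 30 components, 15 neighbours, Leiden resolution 0.5) without 82 member and pathway genes, and clusters were named from at least 3 markers. The names are rebuilt and may differ from the study's.

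UMIs were summed per animal and type with at least 10 nuclei and tested with edgeR 4.0.16 (R 4.3.3; TMM, filterByExpr, quasi-likelihood test, Benjamini-Hochberg adjustment over all genes tested, threshold 0.05). The adipocyte contrast had the animal as a block, and genotype fits used 1 cell type each. The edgeR fits of the adipocyte contrast and of genotype in adipocytes and in secretory luminal nuclei were tried on simulated counts. The fits of the other cell types, of the genotype difference between adipocytes and secretory luminal nuclei, and of DESeq2 were not. Alternatives were DESeq2 1.42.0, RLE, no filter, no animal block, a replicate block, each animal left out, other hashtag rules, depth, doublet, clustering and cell call settings, and counts without milk protein genes.

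The text names all 9 members and the 2 genes nearest in profile to each member. Of the 8 called pathway genes with the largest log2 difference, it names those that are reported here. Others are said to be named after their values were seen. Some pathway genes are not reported here by name or in the plot of pathway genes, though the counts of each list include them. The members and lists were chosen with earlier results of these data known. The 8 animals are the replicates, but they share 1 library, and the p-values measure the spread between these animals. Intervals cover counting error only. An animal had 5992187 to 11184704 UMIs.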

Additional observations from a re-analysis of the deposited data

Results flagged for a closer look

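Of 81 groups of 4 or 8 animals examined, 8 held an animal whose gap to the nearest other was above Dixon's 95% limit, where chance gives about 1 in 20 groups. In adipocytes, Pik3r1 was at 1847 CPM in animal 2 labelled Oxtr-KO, against 772 to 830 CPM in the other 3 of that label. Pik3r1 was at 567 CPM in adipocytes of WT animal 4, against 1917 to 2149 CPM in the other WT animals. Foxo1 was at 848 CPM in adipocytes of animal 3 labelled Oxtr-KO, against 529 to 540 CPM in the others of that label.

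Animal 3 labelled Oxtr-KO stood apart in 4 more groups. Insr was at 300.5 CPM in its secretory luminal nuclei, against 176 to 195 CPM in the others of that label, and at 278 CPM in its myoepithelial nuclei, against 170 to 202 CPM in the other 7 animals. Tbc1d4 was at 658 CPM in its macrophages, against 235 to 369 CPM in the other animals. Slc2a4 was at 4.71 CPM in its luminal progenitors, against 0 in the others, and this value is 1 UMI. Grb10 was at 91.3 CPM in luminal progenitors of animal 2 labelled Oxtr-KO, against 11.5 to 44.7 CPM in the other animals.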

How the results depend on the processing

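Over the alternatives, 168 member values of the adipocyte contrast kept their direction and their side of the threshold and 3 did not, and 300 genotype values did and 13 did not. The members called in the adipocyte contrast numbered 8 to 9 with each animal left out, and the genes called 5515 to 5970. The hashtag ratio rule, which left 61 to 1686 nuclei per animal, gave 2783 genes of 8608 tested. Its fit rested on animals 1, 2 and 4 labelled Oxtr-KO. No WT animal had enough adipocyte nuclei there, so no genotype test that uses adipocytes could be run under it. Members called in the genotype difference between adipocytes and secretory luminal nuclei numbered 1 with no filter on low counts, 1 with cell types called per nucleus, and 0 to 2 with each animal left out. Neighbouring types that differed numbered 9 with Leiden resolution 1.0, 18 of 36 with calls per nucleus and 9 without milk protein genes. Foxo1 in the adipocyte contrast was -0.02 with no filter. Uncalled genotype values changed sign in adipocytes for Irs2 (-0.145 without Oxtr-KO animal 3), Akt2 (0.0246 without WT animal 2) and Grb10 (0.0147 without WT animal 1, 0.0567 with calls per nucleus). They did so in secretory luminal nuclei for Irs1 (0.0573 without WT animal 1), Akt2 (-0.00446 without WT animal 4, -0.0183 with hashtag UMIs of at least 2 reads) and Grb10 (0.0464 without Oxtr-KO animal 4, 0.368 without WT animal 3, 0.0729 with the ratio rule). Tbc1d4 there was -0.000968 without Oxtr-KO animal 2, -0.118 without Oxtr-KO animal 3 and -0.0399 without WT animal 4. With each animal left out, the genotype values in adipocytes ran from -0.145 to 0.331 for Irs2, -0.287 to 0.0246 for Akt2 and -0.165 to 0.0147 for Grb10. In secretory luminal nuclei they ran from -0.394 to 0.0573 for Irs1, -0.00446 to 0.104 for Akt2, -0.38 to 0.368 for Grb10 and -0.118 to 0.125 for Tbc1d4. The cause was not tested. With the replicate block, 0 members were called by genotype in adipocytes, 0 in secretory luminal nuclei and 0 in the other types. Same-numbered animals deviated together with correlations of 0.04 to 0.21 in adipocytes and -0.02 to 0.24 in secretory luminal nuclei. Not every pair was above 0.1, so the numbers were not taken as a pairing, although in secretory luminal nuclei numbers 1, 3 and 4 labelled Oxtr-KO matched best with the same WT number.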
